A study of Mus musculus with 9 samples.

Results

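The major urinary protein (Mup) genes of mouse nasal mucosa are described here through 6 of them, Mup3, Mup4, Mup5, Mup6, Mup20 and Mup21. They are 6 of the 22 Mup rows in a table of 21930 genes. The 6 were chosen from their levels in these same libraries, with earlier results known. Whether differences between groups entered that choice is not recorded, so each adjusted p below sets a difference against the spread between libraries and is no independent support. The study sequenced poly(A) RNA from the nasal mucosa of wild-type mice in 9 libraries, 3 in each of 3 groups, to profile a model of eosinophilic chronic rhinosinusitis with and without exosome treatment. The control group is labelled as having no treatment. The eCRS group received papain, a plant cysteine protease, into the nose at 20 µg in 20 µl of buffer on days 0 to 2 and again on days 7 to 11. The eCRS_Exo group received the same papain and, from day 7 to day 11, intranasal exosomes of mesenchymal stem cells. Buffer alone is named as the counterpart of the exosomes, without saying which mice received it. Tissue was collected on day 12. Whether the 9 libraries are 9 different mice is not stated, and every p therefore measures the spread between libraries, which may be technical.

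Major urinary proteins are lipocalins, small secreted barrel-shaped proteins that carry volatile molecules such as pheromones in a greasy pocket. The best known are made in the liver under growth hormone and thyroid hormone control, pass into the urine and mark the identity and sex of a mouse. Mup20, also called darcin, is a male pheromone of this kind. A few family members, Mup4 and Mup5 among them, are instead known from exocrine glands of the head, including those of the nose, where other lipocalins such as the odorant-binding proteins are also secreted.

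All 22 Mup rows lie within 2.19 Mb of chromosome 4 (GRCm38, GENCODE M21), and the 6 genes sit at its edges. At the proximal edge Mup4 (chr4:59956804-59960710, minus strand) and Mup6 (chr4:59964294-60007274, plus strand) are neighbours that point away from each other, with 3583 bases between their gene models. The remaining 4 lie at the distal edge on the minus strand, namely Mup5 (chr4:61831319-61835233), Mup20 (chr4:62050234-62054158), Mup3 (chr4:62083476-62087342) and Mup21 (chr4:62147932-62150863). The other 16 Mup genes fill the interval between. The transcripts have 7 exons, or 6 for Mup21, and all are annotated as protein coding.

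The second coding exon, 134 bases long in every Mup gene, is shown because it lets the members be told apart by eye. It lies at chr4:59960039-59960172 in Mup4, chr4:61834555-61834688 in Mup5, chr4:60003978-60004111 in Mup6, chr4:62053480-62053613 in Mup20, chr4:62086800-62086933 in Mup3 and chr4:62150195-62150328 in Mup21. Mup9 (chr4:60421319-60421452, minus strand) stands for the genes in between, 8 of which carry its exon letter for letter. Capitals mark the bases that differ from Mup4.
Mup4: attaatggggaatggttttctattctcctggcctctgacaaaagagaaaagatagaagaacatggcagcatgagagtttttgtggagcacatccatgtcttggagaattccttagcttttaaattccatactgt
Mup5: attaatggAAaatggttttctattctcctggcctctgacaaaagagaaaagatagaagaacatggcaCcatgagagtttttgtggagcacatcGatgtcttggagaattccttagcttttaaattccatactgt
Mup6: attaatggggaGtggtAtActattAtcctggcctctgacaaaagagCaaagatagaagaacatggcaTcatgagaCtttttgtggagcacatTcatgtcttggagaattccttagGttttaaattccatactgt
Mup20: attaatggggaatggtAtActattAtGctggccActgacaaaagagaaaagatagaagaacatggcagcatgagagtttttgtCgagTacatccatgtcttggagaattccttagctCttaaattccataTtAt
Mup3: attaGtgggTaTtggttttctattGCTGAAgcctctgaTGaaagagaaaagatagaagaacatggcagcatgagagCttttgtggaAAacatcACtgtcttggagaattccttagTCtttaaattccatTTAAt
Mup21: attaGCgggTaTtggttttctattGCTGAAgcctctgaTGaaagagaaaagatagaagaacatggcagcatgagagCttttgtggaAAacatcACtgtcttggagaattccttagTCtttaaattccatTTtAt
Mup9: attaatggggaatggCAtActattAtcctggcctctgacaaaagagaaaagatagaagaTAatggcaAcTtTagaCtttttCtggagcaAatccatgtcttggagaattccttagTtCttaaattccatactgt
Mup5 differed from Mup4 at 4 of the 134 positions, Mup6 at 9, Mup20 at 10, and Mup3 and Mup21 at 22 each. The 16 genes in between differed from Mup4 at 13 to 16 positions. Over the whole coding sequence Mup4 was 92% identical to Mup5 and 91.8% to Mup6, whereas Mup9 and Mup19, a pair from the middle of the cluster, were 99.8% identical.

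How far reads can be assigned follows from such identity. Of all 100-base windows of the transcript, 0% in Mup4, 0% in Mup6 and 1.33% in Mup5 occurred in another gene. The share was 3.1% in Mup3, 4.5% in Mup21 and 38.8% in Mup20, and it was 59.4% to 100% in the other 16 genes. With 50-base windows it was 12.4% in Mup4, 17.1% in Mup5 and 4.33% in Mup6. Neither the read length nor the treatment of reads that match several genes is stated, so the levels of Mup20 and of the 16 genes in between are uncertain. Of these 16 genes, 14 were listed at 0 in all 9 libraries. Mup9 was listed at 22.99 FPKM in control 1 and at 0 in the rest, and Mup19 at 10.18 FPKM in control 3 and at 0 in the rest.

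**Figure D1:**
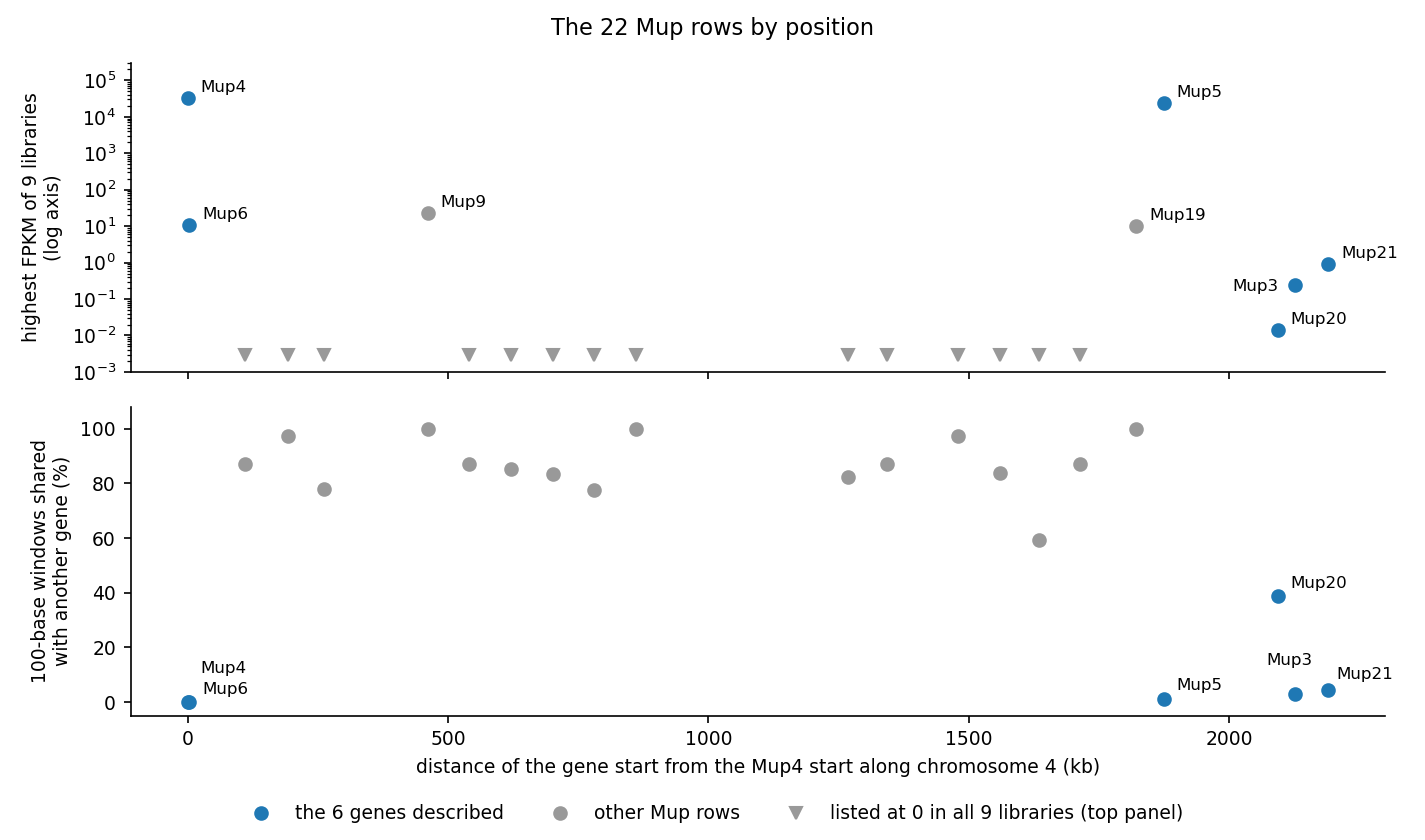
The 22 Mup rows by the distance of their start from that of Mup4 (kb), with the highest FPKM in the 9 libraries on a log axis (top) and the percentage of 100-base transcript windows that occur in another gene (bottom). Blue points are the 6 genes described and grey points the other 16, with triangles for the 14 listed at 0. Mup4 and Mup5 stand highest, and the 16 grey genes share 59.4% to 100% of their windows.

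Levels are the deposited FPKM, a count of fragments divided by transcript length and by the size of the library, which allow genes of different length to be compared within a library. Mup4 was the most abundant member in control and eCRS. It stood at 29496, 23589 and 32289 FPKM in control 1, 2 and 3, at 21646, 28149 and 22709 in eCRS 1, 2 and 3, and at 6458, 8593 and 16708 in eCRS_Exo 1, 2 and 3. Every eCRS_Exo library was below every control and eCRS library, while control and eCRS overlapped. In order of FPKM, Mup4 ranked between place 8 and place 12 of all genes in each library.

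Mup5 stood at 13917, 14170 and 21630 FPKM in control 1, 2 and 3, at 12186, 23972 and 12291 in eCRS, and at 6551, 8077 and 17998 in eCRS_Exo. The 3 groups overlapped, because eCRS_Exo 3 was higher than 4 of the 6 control and eCRS libraries. Its rank in the libraries was between place 9 and place 14.

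Mup6, the neighbour of Mup4, was present at a far lower level. It stood at 10.4, 8.29 and 4.99 FPKM in control, at 8.10, 10.6 and 8.34 in eCRS and at 0.390, 3.14 and 7.05 in eCRS_Exo. The value of eCRS_Exo 1 rests on about 5.47 fragments by a rough estimate of depth, against 60.5 to 236 in the other libraries. Control 3, the lowest control for Mup6, is the library in which Mup19 was listed. Every eCRS_Exo library was below every eCRS library, whereas eCRS_Exo 3 lay within the control range.

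The 3 members of lowest level were near the limit of detection. Mup21 stood at 0.583, 0.734 and 0.167 FPKM in control, at 0.178, 0.692 and 0.689 in eCRS and at 0.172, 0.0904 and 0.889 in eCRS_Exo, which is about 1.27 to 11.1 fragments per library. The groups overlapped throughout. Mup3 was listed at 0.168 and 0.240 FPKM in eCRS 1 and 2 and at 0 in the other 7 libraries. Mup20, the gene of darcin, was listed at 0.0138 FPKM in control 3, less than 1 fragment by the rough estimate, and at 0 in the other 8. These levels are too low to compare between groups, and that of Mup20 is also uncertain because of its shared windows.

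The order by mean FPKM in control and eCRS was Mup4, Mup5, Mup6, Mup21, then Mup3 and Mup20. In eCRS_Exo the means of Mup4 and Mup5, 10586 ± 5408 and 10875 ± 6216 FPKM (SD, n = 3 each), did not differ beyond their spread. In control the same means were 28458 ± 4442 and 16572 ± 4382, and in eCRS 24168 ± 3489 and 16150 ± 6775. In eCRS the intervals of these means overlapped, although Mup4 was the higher of the pair in each of the 3 libraries. Summed over the 6 genes, the family held 5.29% to 6.74% of all FPKM in control, 4.97% to 6.53% in eCRS and 2.63% to 5.24% in eCRS_Exo. Mup4 and Mup5 made up nearly all of these sums. In bulk tissue, fewer cells of a type and less RNA per cell cannot be told apart.

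**Figure D2:**
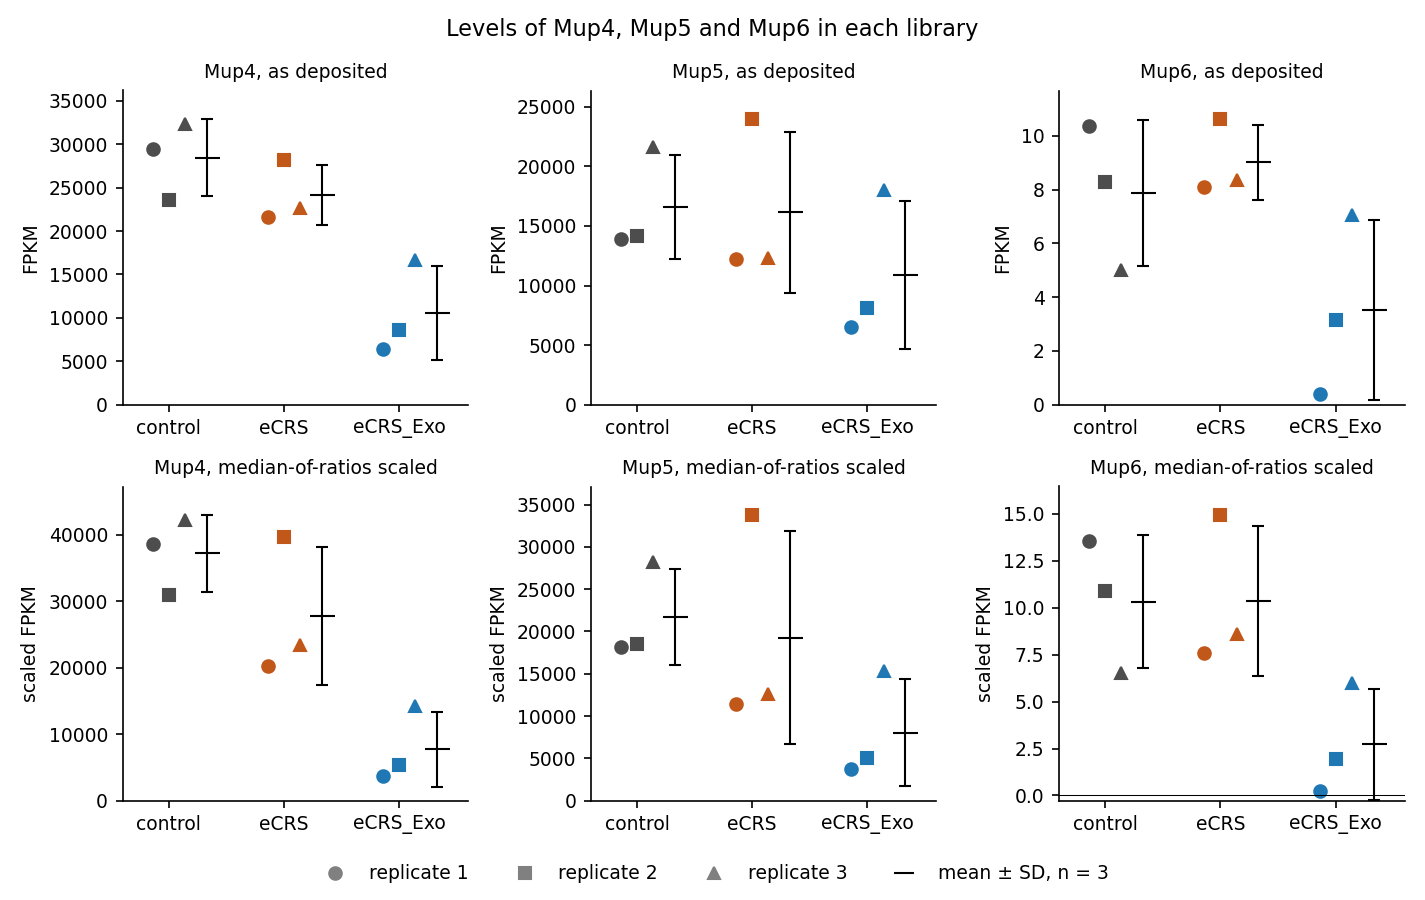
Levels of Mup4, Mup5 and Mup6 in each of the 9 libraries, as deposited (FPKM, top) and after scaling (scaled FPKM, bottom), with symbols for the replicate number and a bar for the mean ± SD of 3 libraries. Mup4 in eCRS_Exo lies below the other groups as deposited (6458 to 16708 against 21646 to 32289 FPKM), and Mup5 overlaps between groups.

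FPKM is relative to everything else in a library, and the eCRS_Exo libraries were shifted as a whole. The median log2 change over all tested genes was 0.19 for eCRS against control, 0.56 for eCRS_Exo against eCRS and 0.76 for eCRS_Exo against control. A second version of each comparison divides every library by the median of its gene ratios to the geometric mean of the 9 libraries (scaled values), and there these medians were -0.004, -0.0059 and 0.0092. In scaled values Mup4 stood at 38585, 30924 and 42193 in control, at 20252, 39640 and 23379 in eCRS and at 3701, 5385 and 14204 in eCRS_Exo. Mup5 stood at 18206, 18576 and 28264 in control, at 11402, 33758 and 12654 in eCRS and at 3754, 5061 and 15301 in eCRS_Exo. On this scale eCRS 2 lay within the control range for Mup4 and above it for Mup5, and eCRS_Exo 3 was the highest of its group for both genes. Mup6 stood at 13.6, 10.9 and 6.53 in control, at 7.57, 14.96 and 8.59 in eCRS and at 0.224, 1.97 and 5.99 in eCRS_Exo, where no eCRS_Exo library reached any control or eCRS library.

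Tests used limma on log2(FPKM + 1), which understates the change of low genes, with Benjamini-Hochberg adjustment over all tested genes and a threshold of 0.05. Mup4, Mup5 and Mup6 passed the filter of at least 1 FPKM in at least 3 libraries, and Mup3, Mup20 and Mup21 did not, so 3 of the 6 were tested. The comparison of eCRS with control asks what papain does to these genes. None of the 3 tested passed by limma, and 0 had an unadjusted p under 0.05. Mup4 had a log2 change of -0.23 ± 0.28 (SE; adjusted p = 0.685), Mup5 of -0.08 ± 0.33 (0.909) and Mup6 of 0.21 ± 0.39 (0.795). In scaled values the log2 changes were -0.47 ± 0.51 (adjusted p = 0.601), -0.32 ± 0.59 (0.763) and 0.0039 ± 0.53 (0.998). The intervals thus admit changes of either sign for all 3 genes. Over all genes tested, 3.01% were higher and 0.518% lower as deposited, and 5.77% and 4.15% in scaled values.

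The comparison of eCRS_Exo with eCRS asks what the exosomes add to papain. Mup4 fell by 1.30 ± 0.28 on the log2 scale (SE; adjusted p = 0.00143), and Mup6 fell by 1.47 ± 0.39 (adjusted p = 0.0048). Mup5 had a log2 change of -0.64 ± 0.33 and did not pass (adjusted p = 0.0904). As deposited, 2 of the 3 tested members were thus lower and 0 higher, where 0.73% of all genes were lower and 63% higher. In scaled values Mup4 fell by 2.02 ± 0.51 (adjusted p = 0.018) and Mup6 fell by 1.90 ± 0.53 (adjusted p = 0.026), and Mup5 was at -1.36 ± 0.59 (adjusted p = 0.107). On that scale 16.2% of all genes were lower and 13.4% higher. As deposited, Mup4 kept its limma call only narrowly without the filter on low values (adjusted p = 0.0419). Under quantile normalization it was at -0.54 (adjusted p = 0.0494). As deposited, Mup6 was at -0.79 without eCRS_Exo 1 (adjusted p = 0.0335) and lost its call without the filter on low values (adjusted p = 0.052). The scaled calls also depended on single libraries. Mup4 lost its call without eCRS 2, eCRS_Exo 1 or eCRS_Exo 2 (adjusted p = 0.0555, 0.0700 and 0.0722), and Mup6 lost it without any of these or without eCRS 3 (adjusted p = 0.0571 to 0.0799). Mup5 in turn passed without eCRS_Exo 3, both as deposited (log2 change -1.07, adjusted p = 0.00147) and scaled (-1.96, adjusted p = 0.015), and as deposited also without eCRS 1 (-0.80, adjusted p = 0.0297).

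Against control, the eCRS_Exo libraries had lower Mup4 by 1.53 ± 0.28 on the log2 scale as deposited (SE; adjusted p = 1.95e-04) and Mup6 fell by 1.26 ± 0.39 (adjusted p = 0.00703). Mup5 fell by 0.72 ± 0.33 (adjusted p = 0.046) as deposited, but its log2 change was 0.44 under quantile normalization. All 3 tested members were lower as deposited, where 0.526% of all genes were lower and 84.3% higher. In scaled values Mup4 fell by 2.49 ± 0.51 (adjusted p = 0.00848) and Mup6 fell by 1.89 ± 0.53 (adjusted p = 0.0281), and Mup5 was at -1.68 ± 0.59 (adjusted p = 0.0576). On that scale 15.6% of all genes were lower and 12.3% higher. This comparison shares its control libraries with that of eCRS and its exosome libraries with the one before, so the 3 are not independent. Mup5 lost its deposited call without control 3, eCRS_Exo 1 or eCRS_Exo 2 (adjusted p = 0.163, 0.237 and 0.117), and Mup6 without eCRS_Exo 1 (log2 change -0.57, adjusted p = 0.0687). In scaled values Mup6 lost it without control 1, control 2, eCRS_Exo 1 or eCRS_Exo 2 (adjusted p = 0.0684 to 0.0903), Mup4 kept it without each of the 9 libraries, and Mup5 passed without eCRS 2 or eCRS_Exo 3.

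**Figure D3:**
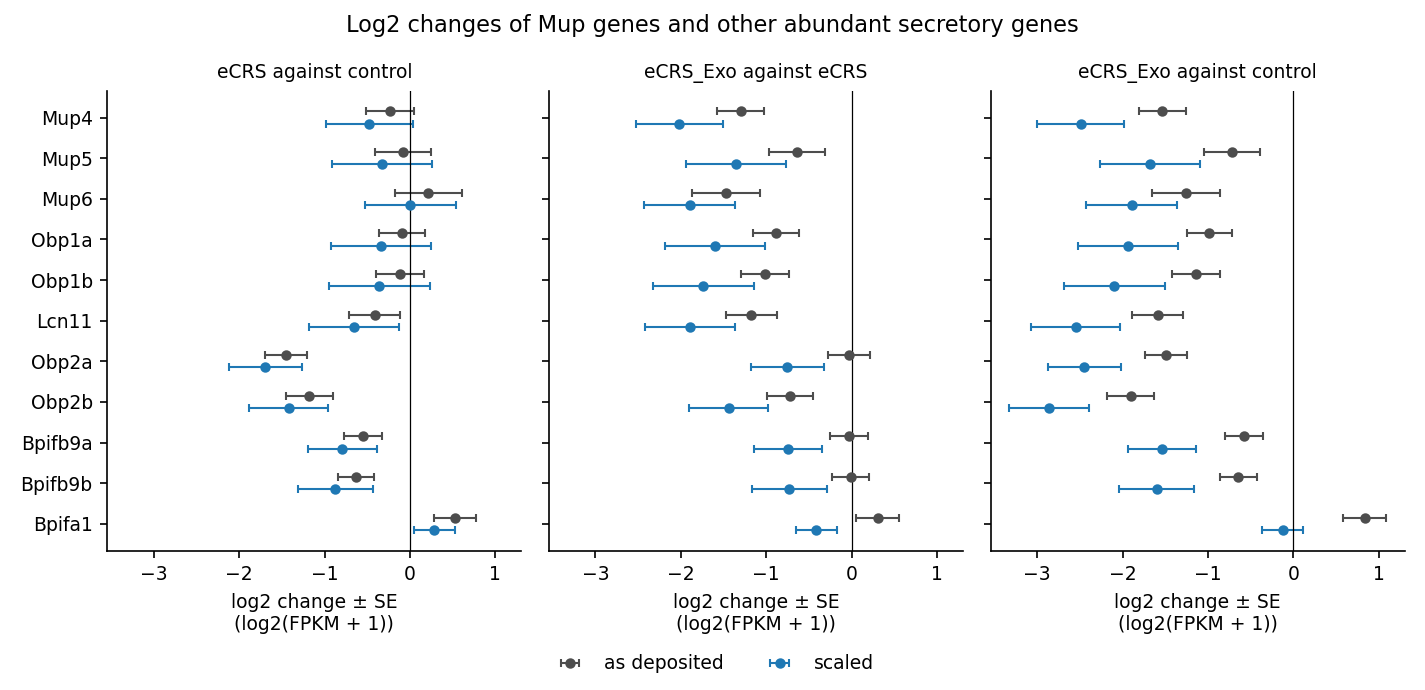
Log2 changes (points) with standard errors (bars) of Mup4, Mup5, Mup6 and 8 other abundant secretory genes in the 3 comparisons, from limma on log2(FPKM + 1), as deposited (grey) and scaled (blue). Mup4 and Mup6 lie left of 0 in both comparisons with eCRS_Exo on both scales, as does Mup5, which does not under quantile normalization.

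Ratios within a library do not depend on its scaling, so they show how the members changed relative to each other. Mup5 stood at 0.472, 0.601 and 0.670 of Mup4 in control, at 0.563, 0.852 and 0.541 in eCRS, and at 1.01, 0.940 and 1.08 in eCRS_Exo. Control and eCRS overlapped, and every eCRS_Exo library lay above both. The difference of the mean log2 ratio was 0.66 ± 0.22 (SE) between eCRS_Exo and eCRS, 0.81 ± 0.16 between eCRS_Exo and control and 0.15 ± 0.26 between eCRS and control. An exact permutation test over 20 regroupings of the libraries gave p = 0.1 in both comparisons with eCRS_Exo, the lowest it can reach. These ratios were chosen after their values were seen and are a description. Mup4 accordingly made up 59.9% to 67.9% of the summed FPKM of the 6 genes in control, 54.0% to 64.9% in eCRS and 48.1% to 51.5% in eCRS_Exo.

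Mup6 kept a narrow ratio to Mup4 in most libraries. Per 10000 FPKM of Mup4 it stood at 3.52, 3.51 and 1.55 in control, at 3.74, 3.77 and 3.67 in eCRS and at 0.604, 3.65 and 4.22 in eCRS_Exo. Outside control 3 and eCRS_Exo 1, the ratio thus lay between 3.51 and 4.22 in 7 libraries across all 3 groups. The lowest ratio was that of eCRS_Exo 1, the library with the fewest Mup6 fragments. Of the 50-base windows, 4.33% in Mup6 and 12.4% in Mup4 occurred in another gene, and the read length is not stated. Whether reads of Mup4 were counted for Mup6 was not tested.

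**Figure D4:**
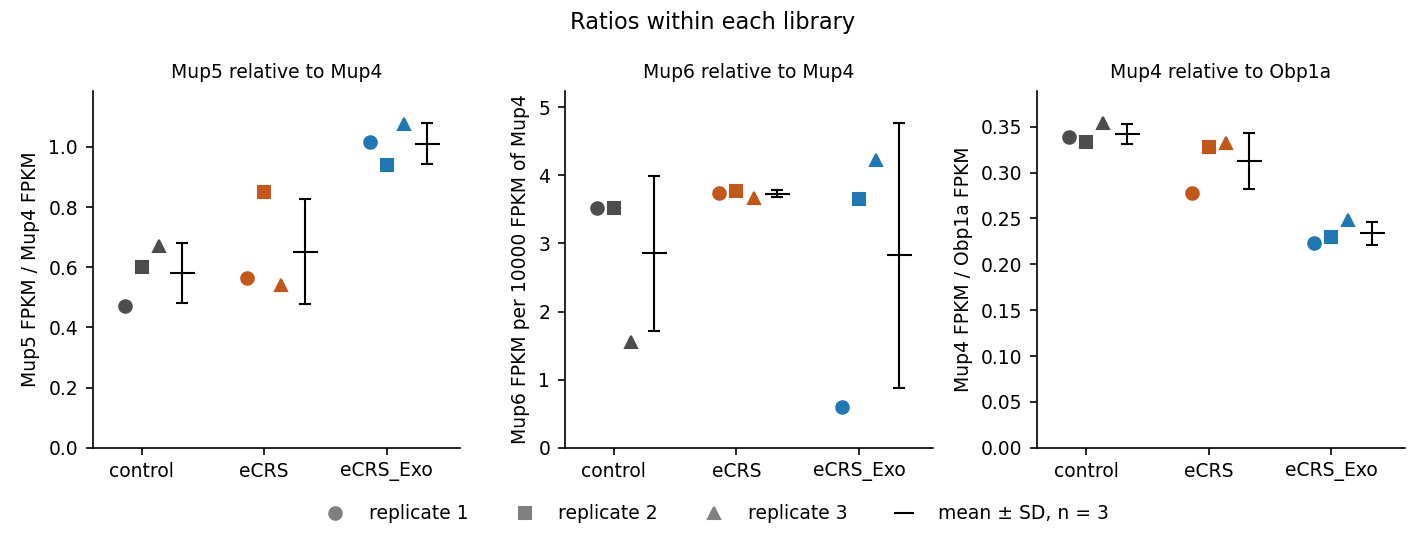
Ratios within each of the 9 libraries of Mup5 to Mup4 (left), Mup6 to Mup4 per 10000 FPKM (middle) and Mup4 to the odorant-binding gene Obp1a (right), with mean ± SD of 3 libraries per group. Mup5 to Mup4 is 0.940 to 1.08 in eCRS_Exo against 0.472 to 0.852 in the other groups, and Mup4 to Obp1a is 0.223 to 0.248 against 0.277 to 0.354.

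The start regions of Mup4 and Mup6 are shown because these neighbours kept a narrow ratio in 7 of 9 libraries at very different levels. Each sequence is the 120 bases before the RefSeq start (GRCm38.p6), on the minus strand at chr4:59960668-59960787 for Mup4 and on the plus strand at chr4:60003361-60003480 for Mup6. Both RefSeq starts lie inside the longer GENCODE gene models, so the 3583 bases between those models are not the distance between these starts, which lie farther apart. Capitals mark the motif TATATAA.
Mup4: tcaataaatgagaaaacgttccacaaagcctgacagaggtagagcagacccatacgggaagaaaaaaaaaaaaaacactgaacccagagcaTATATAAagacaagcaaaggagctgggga
Mup6: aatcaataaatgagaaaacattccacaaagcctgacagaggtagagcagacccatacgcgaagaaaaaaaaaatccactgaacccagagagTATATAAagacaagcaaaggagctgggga
The aligned sequences were 91.8% identical, and the motif began 29 bases before the start in both. It was the only motif searched, on both strands. It occurred in 11 of the 14 Mup windows with a RefSeq entry, and in 532 of 32851 windows of the same length over all genes (1.62%). Mup3 and Mup21 held it 11 and 8 bases before their RefSeq starts, and Mup5 and Mup20 had no entry. A match is a description of the letters and not a measured site. Whether the likeness of these start regions bears on the ratio of Mup6 to Mup4 was not tested.

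Among the other secreted lipocalins, Mup4 was most alike to the odorant-binding genes. Over the 9 libraries, the log2 scaled level of Mup4 had its highest correlations with Obp1b (Pearson r = 0.9969), Obp1a (0.9964), Gm14743 (0.9953), Alg5, a gene of protein glycosylation (0.9947), and Gm14744 (0.9947), of 12507 genes. Mup5 had its highest with Selenop, a secreted selenium carrier (0.9783), Acot13 (0.9765), Iscu (0.9758), the secreted gland product Odam (0.9751) and Sat2 (0.9725). Mup4 correlated with Mup5 at 0.949 and with Mup6 at 0.933. These are descriptions over 9 libraries that share 3 groups and a common scaling.

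Set against Obp1a within a library, Mup4 was at 0.334 to 0.354 in control, 0.277 to 0.332 in eCRS and 0.223 to 0.248 in eCRS_Exo. The eCRS_Exo libraries lay below both other groups, so that Mup4 was lower there relative to Obp1a too. Mup5 stood at 0.160 to 0.237 of Obp1a in control, 0.156 to 0.279 in eCRS and 0.216 to 0.267 in eCRS_Exo, and these ranges overlapped. Relative to Lcn11, a further abundant lipocalin, Mup4 was at 1.41 to 1.58 in control, 1.42 to 2.10 in eCRS and 1.51 to 1.72 in eCRS_Exo, which also overlapped. Relative to the gland product Bpifb9a, Mup4 was at 1.22 to 1.75 in control and 1.62 to 1.98 in eCRS, and at 0.506 to 1.09 in eCRS_Exo, below both.

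Of 24 other lipocalins listed for the nose, none a Mup gene, 17 were in the table and 11 were tested. As deposited, 1 was higher and 2 lower in eCRS against control, 1 and 4 in eCRS_Exo against eCRS, and 2 and 5 in eCRS_Exo against control. The shares of all genes were 3.01% higher and 0.518% lower, 63% and 0.73%, and 84.3% and 0.526%. Their median log2 changes were -0.12, -0.15 and -0.25, beside 0.19, 0.56 and 0.76 over all genes. Scaled, 2 were higher and 2 lower, 1 and 2, and 1 and 7, with medians of -0.36, -0.87 and -1.21, where 5.77% of all genes were higher and 4.15% lower, 13.4% and 16.2%, and 12.3% and 15.6%. Lcn2, which binds bacterial siderophores, rose by 3.83 ± 0.30 in eCRS against control (SE; adjusted p = 5.50e-08), where Mup4 did not pass. Obp2a, at 26584 ± 3752 FPKM (SD, n = 3) in control, fell by 1.45 ± 0.24 in eCRS against control (adjusted p = 0.00111), and Lcn11 fell by 1.18 ± 0.30 in eCRS_Exo against eCRS (adjusted p = 0.00339).

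Hormone receptors, signalling genes and transcription factors known for the control of Mup genes in the liver were mostly present at low levels. Of 22 listed, 14 were tested and 8 were under 1 FPKM in all libraries. As deposited, 2 were higher in eCRS against control, 8 in eCRS_Exo against eCRS and 12 in eCRS_Exo against control, and 0 were lower, where 3.01%, 63% and 84.3% of all genes were higher. The median log2 changes were 0.22, 0.44 and 0.85, beside 0.19, 0.56 and 0.76 over all genes. In scaled values 3 were higher and 0 lower, 2 higher and 3 lower, and 0 higher and 1 lower, in the same order, where 5.77%, 13.4% and 12.3% of all genes were higher and 4.15%, 16.2% and 15.6% lower. The growth hormone receptor gene Ghr, at 4.70 to 5.68 FPKM, had a log2 change of -0.10 ± 0.17 in eCRS_Exo against eCRS as deposited (SE; adjusted p = 0.614), and fell by 0.68 ± 0.12 in scaled values only (adjusted p = 0.00586). The liver factor gene Hnf4a was listed at 0 in all libraries.

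Markers of the tissues that Mup genes are best known from were checked in the same libraries. Of 20 liver secretory genes, 17 were under 1 FPKM in all libraries, with Apoc3, Fgb and Tat listed at 0 and albumin (Alb) at no more than 0.051. Their summed level was 11.8 to 18.5 FPKM in control, 12.1 to 20.8 in eCRS and 20.5 to 55.7 in eCRS_Exo, mostly from Trf and Cyp2e1. Of 19 vomeronasal genes, 9 were under 1 FPKM in all libraries, and the sums were 44.1 to 59.8, 40.5 to 66.4 and 107 to 169.5 FPKM. These sums came mostly from Gnao1, Gnai2, Ano1 and Ano2, and Trpc2 was at no more than 1.77 FPKM in any library. Other listed genes went higher and varied within groups. Calr4 stood at 0.254, 3.47 and 0.212 FPKM in control and at 9.46, 2.01 and 7.67 in eCRS_Exo, and Vmn1r37 reached 4.64. Of the lipocalin list, Lcn3 and Lcn4 also varied within groups, between 207 and 1876 and between 155 and 1044 FPKM over all libraries. All 16 nasal tissue markers were present, and their sums were 4482 to 6170 FPKM in control, 7376 to 10884 in eCRS and 10835 to 15911 in eCRS_Exo. Among them Omp, of mature olfactory neurons, was at 216 ± 40.0 FPKM in control, 148 ± 73.1 in eCRS and 547 ± 223 in eCRS_Exo (SD, n = 3 each). In eCRS_Exo against eCRS, 9 of these 16 were higher and 1 lower as deposited, where 63% of all genes were higher and 0.73% lower. Scaled, 4 were higher and 3 lower, with a median log2 change of -0.062 beside -0.0059 over all genes. Of the 6 tested vomeronasal genes, 6 were higher as deposited and 3 scaled in eCRS_Exo against eCRS, where 63% and 13.4% of all genes were higher. The part of these tissue markers in the Mup differences was not tested. The Y-linked genes Ddx3y, Eif2s3y, Kdm5d and Uty were above 0 in every library. Xist and Tsix were listed too but had no row under these symbols, so the presence of female tissue could not be checked.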

How the data were processed

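The authors deposited 1 table of FPKM values for 21930 Ensembl genes in the 9 libraries. Reads were trimmed with fastp 0.19.4, and HISAT2, StringTie and the build mm10 were used, per the submitters' processing notes. The annotation, strand setting, read length and handling of multi-mapping reads are not stated in those sources. Symbols were available for 21817 rows, and gene models came from GENCODE M21. The FPKM value of 1 fragment was read from low genes, between 0.03 and 0.08 FPKM times kilobases. Libraries so held roughly 15.2 M to 24.8 M fragments (M, mega). The method can only return 12.5 to 33.3 M. Genes given an FPKM of 0 are called listed at 0.

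The members and gene lists were chosen with earlier results of these data known. The test was that of limma 3.58.1 (R 4.3.3) on log2(FPKM + 1), with a mean-variance trend and all 9 libraries in 1 fit (6 residual degrees of freedom). Genes needed at least 1 FPKM in at least 3 libraries, which left 12738 genes as deposited and 12507 scaled, and p values were adjusted by Benjamini-Hochberg. Scaling factors were 0.710 to 1.75. On simulated data among 12738 genes limma recovered 69 of 100 genes changed 2-fold and 95 of 100 changed 4-fold for eCRS against control, 72 and 100 for eCRS_Exo against eCRS, and 72 and 100 for eCRS_Exo against control. It called 8, 7 and 11 unchanged genes. Only 100 genes were changed by each amount there. As deposited, 63% of all genes were higher in eCRS_Exo against eCRS and 84.3% in eCRS_Exo against control. The simulated noise was drawn for each gene on its own, from the deposited spreads. Recovery under a change of that many genes, under shifts of whole libraries or in scaled values was not tested.

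Named are the 6 members, the other Mup rows, up to 2 called genes of smallest p per list and comparison, members of the liver and vomeronasal lists, and the 5 genes most alike to Mup4 and to Mup5. Of the genes so named only some are described. Hnf4a, Omp, Bpifb9a, Lcn3, Lcn4 and the ratios between genes were picked after their values were seen. The alternatives were a pseudocount of 0.1, no filter, a filter at 5 FPKM, rescaling to a common sum (TPM), quantile normalization, fits of the 2 groups compared, a replicate block, no trend, and each library left out. Coding sequences and exons were cut from GENCODE M21 transcript sequences by GENCODE coordinates, and start regions from the RefSeq promoter table. Coding sequences and start regions were compared with the pairwise aligner of Biopython. The work used Python 3.11.15 with NumPy 2.4.6, pandas 2.3.3 and matplotlib 3.10.9.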

Additional observations from a re-analysis of the deposited data

How the results depend on the processing

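No library, setting or scale tried made a tested Mup gene pass in eCRS against control. Signs there were unstable. Under quantile normalization the log2 change was 0.092 for Mup4, 0.44 for Mup5 and -0.015 for Mup6, and with a common sum it was 0.011 for Mup5. With 1 library left out it ran from -0.41 to 0.12 for Mup5 and from -0.046 to 0.42 for Mup6 as deposited, and from -0.27 to 0.21 for Mup6 scaled. Quantile normalization also turned Mup5 to 0.0092 in eCRS_Exo against eCRS and to 0.44 in eCRS_Exo against control.

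The number of members lower in eCRS_Exo against control, 3 as deposited, was 1 without a filter and 1 under quantile normalization, where Mup4 was at -0.44 (adjusted p = 0.0907). There Mup5 also lost its call with a common sum (-0.25, adjusted p = 0.291), a pseudocount of 0.1 (adjusted p = 0.05003) and a filter at 5 FPKM (adjusted p = 0.05036). It ran from 1 (without eCRS_Exo 1) to 3 with 1 library left out. In scaled values the number in eCRS_Exo against eCRS, 2, was 0 without a filter and 1 in a fit of the 2 groups only, and it ran from 0 (without eCRS 2, eCRS_Exo 1 or eCRS_Exo 2) to 3 (without eCRS_Exo 3). In scaled values the number in eCRS_Exo against control, 2, was 0 without a filter and ran from 1 to 3. Without a filter the scaled Mup4 had adjusted p = 0.205 in eCRS_Exo against eCRS and 0.126 against control. The cause of these shifts was not tested. Of the 288 values of single members under an alternative, 240 kept direction and side of the threshold, 27 lost the call, 9 gained it and 12 changed sign. Many alternatives, such as leaving out a library of a group not compared, cannot move the log2 change. Values that failed the threshold both times also count as kept. These counts are therefore no measure of robustness.

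Same-numbered libraries of different groups correlated at -0.312 to 0.141 in their deviations from group means, and differently numbered ones at -0.408 to 0.402. With 3 libraries a group, on deposited values that shift as whole libraries, pairing by number can be neither shown nor excluded. With a replicate block the members lower were 0, 3 and 3 as deposited, Mup5 passing in eCRS_Exo against eCRS (adjusted p = 0.0464), and 0, 2 and 2 scaled. Few fragments limit Mup21, Mup3 and Mup20, which were not tested. Adding the other 16 Mup rows to the sum of the 6 moved it in control 1 (43424 to 43447 FPKM) and control 3 (53924 to 53934), and in none of the other 7 libraries.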

Other observations

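Products of the head glands that are known beside Mup4 and Mup5 had no common direction. Of 15 lacrimal and salivary gland products listed, 7 were tested. As deposited, 0 passed by limma in eCRS against control, and 2 were higher in eCRS_Exo against eCRS, namely the amylase gene Amy1 (log2 change 0.51 ± 0.19, SE; adjusted p = 0.0266) and Smr3a (0.57 ± 0.23; adjusted p = 0.0351), where 63% of all genes were higher. In scaled values 0 passed in either comparison. Of 21 tested products of nasal glands, 9 were higher and 0 lower as deposited in eCRS_Exo against eCRS, and 1 higher and 3 lower scaled, where 63% of all genes were higher and 0.73% lower as deposited, and 13.4% and 16.2% scaled. Pigr, the receptor that carries immunoglobulin A across epithelium, was higher on both scales in that comparison (1.42 ± 0.26 as deposited, adjusted p = 6.05e-04, and 0.71 ± 0.20 scaled, adjusted p = 0.0253), while Mup4 was lower on both.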
